A study of Homo sapiens with 12 samples.

Results

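The collagen and laminin chain genes were taken by name: all genes called COL followed by a type number, A and a chain number, and the laminin alpha, beta and gamma chain genes LAMA, LAMB and LAMC with 1 digit. Of 60504 genes listed, 55 with such a name are reported, 44 collagens and 11 laminins, and 25 of these, 17 collagens and 8 laminins, reached at least 1 TPM, a length-corrected share of all transcripts in a library, in 2 or more of the 12 libraries. The last to pass was COL16A1, a fibril-associated collagen, with 2 libraries above 1 TPM and a highest value of 1.29 TPM, and the first to miss was COL6A3, the long chain of collagen VI, with a highest value of 0.789 TPM.

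Collagens are triple helices of 3 alpha chains. Fibrillar types bear tension in interstitial matrix, type IV forms the network of basement membranes, type VI forms beaded filaments, and type VII anchors epithelia to the stroma. Laminins are cross-shaped trimers of 1 alpha, 1 beta and 1 gamma chain that polymerize on the cell surface and are bound by integrins. In bladder, a basement membrane of laminin and collagen IV lies under the urothelium, and its breach marks invasion.

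RNA sequencing was performed on T24, a cell line from a human bladder carcinoma, to ask how the level of U11 affects the transcriptome. U11 is the small nuclear RNA of the minor spliceosome that recognizes the start of U12-type introns. The first set held 2 untreated control libraries and 2 libraries labelled U11 knockout (the knockout-label libraries), made with CRISPR/Cas9 from a selected clone. The second set held 2 untreated control libraries and 6 libraries labelled U11 overexpression, from stable transfection with the plasmid pcDNA-U11 and clonal selection. The 6 carried the line labels 79, 86 and 87, with 2 libraries each (numbered 1 and 3), and what the line labels stand for is not given in the labels. No label says that libraries of a group came from separate cultures, so P values measure the spread between these libraries only. The controls were tied to a set by the library series in their titles: the knockout set was 1 series, and the overexpression set was 2 series, each with 1 control and 1 library of every line.

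The transcript named for U11 stood at 21.4 and 23.8 TPM among controls of the knockout set and was higher, 31.6 and 37.4 TPM, in the knockout-label libraries. U11 carries no poly(A) tail. The labels name polyadenylated RNA, whereas the study's methods name depletion of ribosomal RNA. How far these TPM values measure the U11 level of the cells is thus not known, and they check the labels neither way. The study also measured U11 by quantitative PCR, which is not analysed here. Directions for these libraries are given by their label. In the overexpression set, the listed U11 value was 0.033 and 0.623 TPM in the controls, 0.183 and 0.412 TPM in line 79, 3.98 and 3.72 TPM in line 86, and 61.9 and 53.6 TPM in line 87. The value in line 79 lay between those of its controls.

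The sets also differed in the kind of RNA they held. The 10 most abundant genes took between 45.5% and 49.6% of all TPM in the knockout set and between 7.06% and 7.56% in the overexpression set, and 89 clustered histone genes summed to between 27662 and 34279 TPM against between 103 and 180 TPM. Levels in the knockout set and the overexpression set were therefore not compared as conditions. In untreated cells, 23 of the 25 chains were listed higher in the overexpression set than in the knockout set, with a median ratio of 2.21 and the highest ratio, 6.66, at LAMA5. Library type and level cannot be told apart there. The aligned sequence ranged from 9.07 to 15.3 gigabases per library.

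Markers of the cell line were present and those of stroma were near 0. All 6 T24 genes on a list of keratins, VIM and HRAS were expressed in every library, with sums from 3439 to 11307 TPM and KRT7 the most abundant. The 6 fibroblast markers summed to between 0.515 and 1.77 TPM, of which PDGFRB alone reached 1 TPM, and DCN, LUM, PDGFRA, THY1 and FAP stayed at or below 0.284 TPM. The collagen RNA described here was thus measured in libraries in which fibroblast markers were near 0. Of 4 endothelial markers, VWF, KDR and PECAM1 stayed at or below 0.297 TPM in every library. CDH5, a cadherin of endothelial junctions, was the exception, at 34.1 and 32.2 TPM in line 79, between 3.08 and 5.28 TPM in the other overexpression-set libraries, 4.85 and 4.75 TPM in the knockout-set controls, and 0.0316 and 0.0293 TPM in the knockout-label libraries. Leukocyte markers summed to at most 1.84 TPM and markers of differentiated urothelium to at most 0.437 TPM.

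Chains of basement membranes and of interstitial matrix were both expressed. Of 6 collagen IV chains 4 were expressed, of 5 collagen VI chains 2, of 11 fibrillar chains 3 and of 10 fibril-associated chains 3, while 4 of 5 laminin alpha and 3 of 4 beta chains were expressed. In untreated cells the most abundant chain was COL5A2, at a mean of 257 TPM in the knockout set and 422 TPM in the overexpression set. It is a fibrillar chain that in tissues assembles with COL5A1, yet COL5A1 reached at most 0.287 TPM in any library. COL3A1, the gene next to COL5A2 on chromosome 2, reached at most 0.0452 TPM. COL1A2, the partner of COL1A1, reached at most 0.0464 TPM. The order below COL5A2 differed between the sets. In the knockout-set controls the next were COL4A2 at 150 TPM, COL6A2, a partner of COL6A3, at 147 TPM, and COL18A1, a basement membrane collagen whose end fragment is endostatin, at 118 TPM, and in the overexpression-set controls COL18A1 at 339 TPM, COL4A2 at 335 TPM and COL6A2 at 245 TPM. The leading laminins were LAMB3 at 96.6 TPM, LAMC1 at 79.9 TPM and LAMB1 at 46.3 TPM in the knockout-set controls, and LAMC1 at 166 TPM, LAMA5 at 163 TPM and LAMB3 at 139 TPM in those of the overexpression set. The ranges of COL4A2 and COL6A2 overlapped in the knockout-set controls, as did those of COL18A1 and COL4A2 and of LAMC1 and LAMA5 in the overexpression-set controls.

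**Figure D1:**
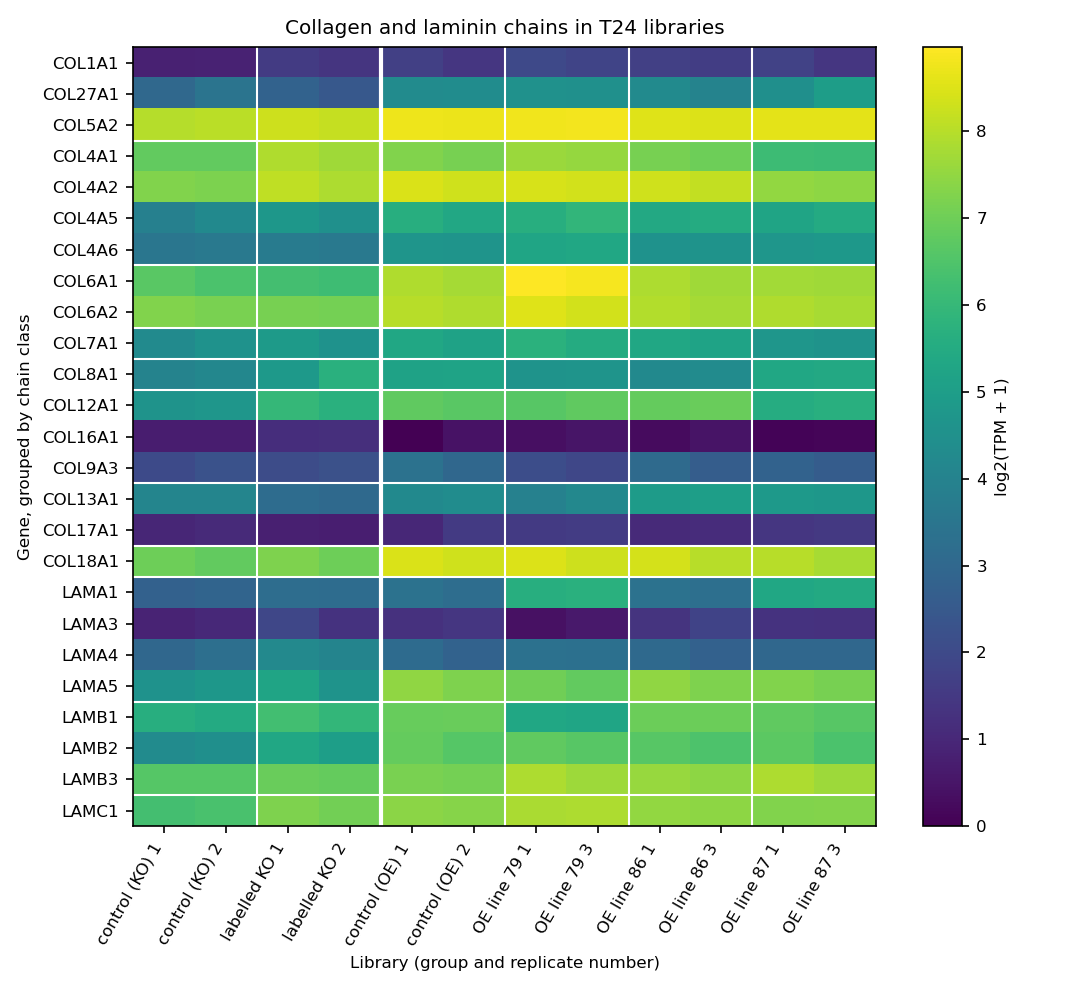
Level of each of the 25 expressed chains (rows, grouped by chain class) in each of the 12 libraries (columns, the knockout set left of the thick line), as log2(TPM + 1) by colour. COL5A2 is bright in every library, LAMA1 is brighter in lines 79 and 87, and LAMB1 is darker in line 79.

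Summed over the 25 chains, the knockout-set controls held 1276 ± 6.25 TPM and the knockout-label libraries 1720.0 ± 138 TPM (mean ± SD, n = 2 each). The overexpression-set controls held 2721 ± 142 TPM, line 79 held 3225 ± 120 TPM, line 86 held 2595 ± 183 TPM and line 87 held 2323 ± 82.7 TPM (n = 2 each). The libraries of line 79 lay above, and those of line 87 below, both of their controls, and line 86 overlapped them. In bulk RNA, fewer cells making a chain and less of it per cell cannot be told apart.

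The promoters of chains with large changes are shown first, since a pair of them share theirs. COL4A1 (ENSG00000187498) and COL4A2 (ENSG00000134871) lie head to head at chr13:110148963-110307149, minus strand, and chr13:110305812-110513027, plus strand, in hg38, and their RefSeq start sites are 127 bases apart. In the annotation of the files the starts cross by 1337 bases, and whether strand was used in quantification is not given in the sources used here, so reads from that stretch cannot be assigned to one gene with certainty. Their promoter windows, 250 bases before to 50 after the start in GRCh38.p14, overlap by 226 bases. They are shown with those of COL12A1, COL13A1 and LAMB1, called in 2, 2 and 1 of the comparisons with controls below. The sequences are RefSeq's, 5′ to 3′ on the strand of the gene, and capitals mark GC boxes, CCAAT boxes and TATA boxes on either strand. The letters searched were GGGCGG for the GC box. They were TATAAA for the TATA box, and CCAAT for the box of that name. The windows are COL4A1 at chr13:110307108-110307407 on the minus strand, COL4A2 at chr13:110307034-110307333 on the plus strand, COL12A1 at chr6:75206004-75206303 on the minus strand, COL13A1 at chr10:69801656-69801955 on the plus strand and LAMB1 at chr7:108003112-108003411 on the minus strand.
COL4A1: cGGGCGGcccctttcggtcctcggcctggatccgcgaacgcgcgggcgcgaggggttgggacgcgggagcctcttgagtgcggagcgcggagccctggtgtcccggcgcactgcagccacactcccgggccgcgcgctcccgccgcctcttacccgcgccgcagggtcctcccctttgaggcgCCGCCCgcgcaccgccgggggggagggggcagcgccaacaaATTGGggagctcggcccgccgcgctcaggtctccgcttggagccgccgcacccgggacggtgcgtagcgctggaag
COL4A2: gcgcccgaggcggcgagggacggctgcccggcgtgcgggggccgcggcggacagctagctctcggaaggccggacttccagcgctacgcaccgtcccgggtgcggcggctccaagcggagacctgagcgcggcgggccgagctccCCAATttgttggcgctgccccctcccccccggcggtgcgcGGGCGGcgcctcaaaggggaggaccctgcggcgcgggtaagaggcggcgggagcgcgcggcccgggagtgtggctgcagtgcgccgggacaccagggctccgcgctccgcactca
COL12A1: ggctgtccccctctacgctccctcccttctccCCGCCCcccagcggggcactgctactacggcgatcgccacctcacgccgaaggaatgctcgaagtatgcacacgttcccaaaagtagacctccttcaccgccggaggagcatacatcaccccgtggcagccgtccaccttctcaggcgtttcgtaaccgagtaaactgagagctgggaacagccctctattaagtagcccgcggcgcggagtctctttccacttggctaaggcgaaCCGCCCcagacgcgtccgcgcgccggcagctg
COL13A1: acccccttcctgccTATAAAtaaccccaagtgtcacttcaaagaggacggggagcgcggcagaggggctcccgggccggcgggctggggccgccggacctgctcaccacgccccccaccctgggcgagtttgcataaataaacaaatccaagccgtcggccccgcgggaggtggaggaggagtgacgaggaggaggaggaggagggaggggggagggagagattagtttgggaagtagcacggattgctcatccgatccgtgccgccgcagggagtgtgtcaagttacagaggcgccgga
LAMB1: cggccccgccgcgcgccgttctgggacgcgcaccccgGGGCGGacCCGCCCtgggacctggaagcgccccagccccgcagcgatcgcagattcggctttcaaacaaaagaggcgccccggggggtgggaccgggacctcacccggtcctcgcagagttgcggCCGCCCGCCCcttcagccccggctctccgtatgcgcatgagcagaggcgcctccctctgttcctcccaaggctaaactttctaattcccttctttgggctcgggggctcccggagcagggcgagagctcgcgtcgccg

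The CCAAT box and the GC box next to it in the COL4A2 window are the same bases as ATTGG and the second GC box in the COL4A1 window, read on the other strand. Over the 19 expressed members with a window (23 windows), GC boxes stood in 18 windows, against 45.0% of 35116 promoter windows of all genes. CCAAT stood in 6 windows against 34.6%, TATAAA in 5 against 11.5%, and TGANTCA, the letters of an AP-1 site, in 2, those of LAMA3 and LAMB3, against 7.71%. The windows had a median GC content of 63.3% against 58.7%. The U12-type intron, the substrate of U11, was also searched for. Introns of at least 60 bases that open with ATATCCTT or GTATCCTT numbered 0 of the 1390 annotated introns of the 25 chains, against 809 of 402166 introns in all genes, in 631 of 39107 genes (1.61%). A match is a description of letters, and no match says only that those letters were not there.

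In the knockout-label libraries COL4A1 and COL4A2, LAMC1, LAMB2 and LAMA4, COL12A1 and COL8A1 were higher, and the transmembrane collagen COL13A1 and the fibrillar chain COL27A1 were lower. Of 24 chains tested, 11 (45.8%) were called by limma at the study's thresholds, a fold change of at least 1.5 and an unadjusted P value under 0.05. Of all 14356 genes tested 11.8% were called. The 11 were 9 higher and 2 lower, against 8.61% and 3.15% of genes (1236 and 452). With median ratio scaling they were 7 higher and 2 lower, against 795 and 704 genes. Of the 11, COL1A1 and LAMA3 were under 1 TPM in 2 and 1 of the 2 controls and passed the filter through the knockout-label libraries. With 1 TPM required in every library 9 of 21 chains were called, 7 higher and 2 lower. No share of all genes was computed with that requirement, for this count or the like counts below. With limma P values adjusted over all genes, 7 were called against 6.85% of genes: 6 higher and 1 lower. The adjusted P of COL12A1 and COL13A1 was above 0.05 with a replicate block (0.0648 and 0.0797) and with no filter (0.104 and 0.0934). The log2 change had a median of 0.42 over the chains and of 0.11 over all genes, and 20 chains were above 0, or 18 above that median of all genes.

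COL4A1 was at 111 and 110 TPM in the untreated libraries and 239 and 206 TPM in the knockout-label libraries. Its neighbour COL4A2 was at 153 and 147 TPM against 274 and 230 TPM. For both chains, which form the common collagen IV trimer, the groups did not overlap, as for uncalled chains such as COL5A2 and COL6A2. COL4A1 rose by 1.00 ± 0.10 on the log2 scale (± standard error, adjusted P = 0.0171), and COL4A2 by 0.74 ± 0.11 (adjusted P = 0.0313). Of 4 collagen IV chains tested these 2 were called. The other head-to-head pair, COL4A5 and COL4A6, chains of a second type IV network, was not called, with log2 differences of 0.53 ± 0.17 and 0.10. Among collagens of other structures, COL12A1, a fibril-associated chain that links fibrils to their surroundings, was at 23.5 and 25.4 TPM against 61.4 and 50.4 TPM. It rose by 1.16 ± 0.13 (adjusted P = 0.0203). COL8A1, a short-chain network collagen, was at 15.0 and 16.7 TPM against 27.6 and 51.3 TPM, and its log2 change was 1.20 ± 0.30 (adjusted P = 0.0794). It was 0.76 without knockout-label replicate 2. COL13A1, a transmembrane collagen of adhesion sites, was at 16.1 and 15.9 TPM against 7.94 and 7.40 TPM. It fell by 0.97 ± 0.11 on the log2 scale (adjusted P = 0.0203). COL27A1, a fibrillar chain of cartilage, was at 7.14 and 9.86 TPM against 6.06 and 4.52 TPM, a log2 change of -0.59 ± 0.21 with an adjusted P = 0.145. Without knockout-label replicate 2 the change was -0.41, and without control replicate 2 it was -0.38, and neither passed the test.

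Of 8 laminin chains tested 4 (50%) were called, all higher, against 8.61% of all genes called higher: LAMA3, LAMA4, LAMB2 and LAMC1. Over the 7 at 1 TPM or more in every library, which leaves out LAMA3, 3 were called. LAMA1 and LAMA5 were not, with log2 differences of 0.37 and 0.26. LAMC1, the gamma chain of most laminins, was at 77.7 and 82.1 TPM in the controls and 149 and 132 TPM in the knockout-label libraries, and rose by 0.81 ± 0.10 on the log2 scale (adjusted P = 0.0225). LAMB3, a beta chain of epithelial laminins, was at 97.3 and 95.8 TPM against 120 and 114 TPM, a difference of 0.27 that missed the fold threshold. LAMA3 was listed at 0.841 and 1.07 TPM against 2.80 and 1.47 TPM, with a log2 change of 0.65 ± 0.24 (adjusted P = 0.154). That call was lost without knockout-label replicate 1, where the change was 0.34, and without control replicate 1, where it was 0.57. LAMA4, an alpha chain of vessel and muscle laminins, was at 7.01 and 8.67 TPM against 17.8 and 15.6 TPM and rose by 1.01 ± 0.15 (adjusted P = 0.0301). LAMB2 was at 19.1 and 21.1 TPM against 40.0 and 31.6 TPM and rose by 0.80 ± 0.15 (adjusted P = 0.0457), while LAMB1, a widely expressed beta chain, had a log2 difference of 0.53 ± 0.14 and was not called.

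COL1A1, the main chain of collagen I, was listed at 0.755 and 0.823 TPM in the controls and 1.95 and 1.64 TPM in the knockout-label libraries. COL16A1 was at 0.660 and 0.640 TPM against 1.25 and 1.29 TPM. Both passed the filter only through the knockout-label libraries, so they had to differ. Of them COL1A1 was called, with a log2 change of 0.64 (adjusted P = 0.0548), and fell below 1.5-fold under both other scalings and in FPKM. COL5A2, the most abundant chain, was at 251 and 263 TPM against 314 and 287 TPM, a log2 difference of 0.22 that was not called, and COL18A1 had a log2 difference of 0.23. COL6A1 was at 100 and 85.5 TPM against 76.8 and 71.6 TPM (log2 difference -0.32), and COL6A2 at 152 and 143 TPM against 138 and 137 TPM (-0.10). The histone sum was lower, and CDH5 far lower, in the knockout-label libraries than in the controls. Of the T24 genes, VIM was higher there, at 2254 and 2096 TPM against 1304 and 1259 TPM. KRT18 (292 and 270 against 400 and 373 TPM), KRT19 (92.8 and 90.3 against 158 and 151 TPM) and HRAS (112 and 118 against 139 and 134 TPM) were lower. KRT7 and KRT8 stayed near their controls. The part of histones and of these genes in the differences of the chains was not tested.

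**Figure D2:**
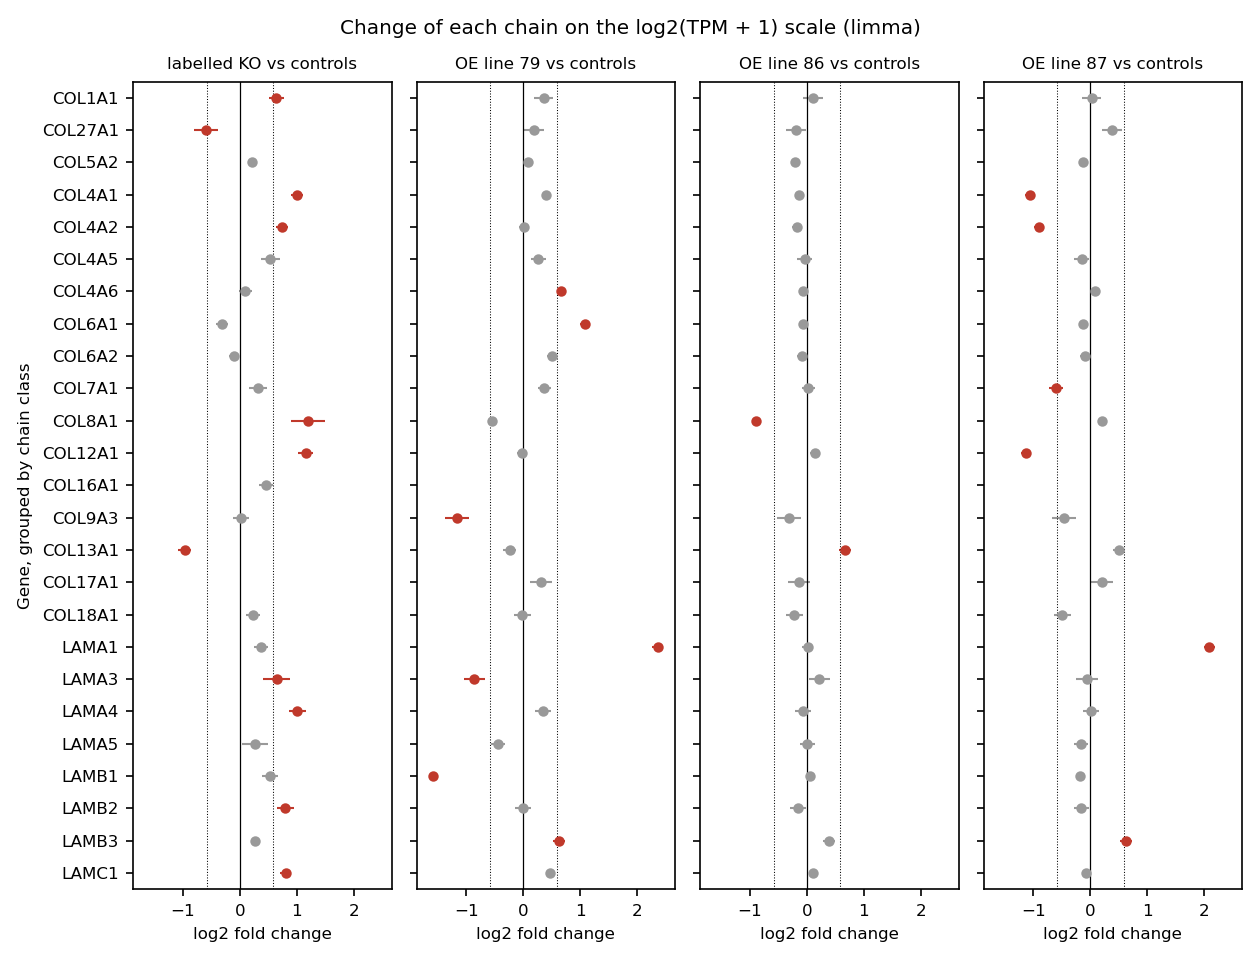
Log2 fold change of each chain on the log2(TPM + 1) scale (x axis; points, limma estimates; bars, standard errors) in the knockout-label libraries and in lines 79, 86 and 87, each against its controls. Red marks the 11, 7, 2 and 6 chains called in the respective comparison, and dotted lines mark a 1.5-fold change.

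When the 6 overexpression libraries were compared as 1 group with their 2 controls, 0 of 24 chains were called, where 1.93% of all 15768 genes tested were called with limma. One chain had an unadjusted P under 0.05: LAMB3, at 143 and 136 TPM in the controls and from 172 to 233 TPM (median 201) in the overexpression libraries. Its groups did not overlap, but its log2 difference of 0.55 ± 0.12 (adjusted P = 0.255) was under 1.5-fold. The median log2 difference over the chains was -0.02. The spread lay between the lines: LAMA1, for example, ranged from 8.64 to 51.2 TPM (median 41.1) against 9.53 and 8.28 TPM, a log2 difference of 1.49 ± 0.71. Leaving out line 86 replicate 1 gave 2 calls, LAMA1 and COL9A3, and leaving out line 86 replicate 3 gave 2 calls, LAMA1 and LAMB3.

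Among the 3 line labels, 13 of 24 chains (54.2%) were called by limma's moderated F test at the same thresholds, the fold being that between the highest and lowest line, where 14.6% of genes were called. With adjusted P values 12 were called, against 10.8% of genes, and the exception was COL9A3 (adjusted P = 0.0687). Without line 79 replicate 3 COL9A3 did not pass the F test, and without line 79 replicate 1 COL6A2 was not (0.51, under 1.5-fold). The 13 held 10 collagens and 3 laminins. Between pairs of lines, 8 chains were called for 79 against 86 (9.8% of genes), 11 for 79 against 87 (8.7% of genes) and 6 for 86 against 87 (6.46% of genes). LAMA3 is among the 8 and among the 11, but it reached 1 TPM in 0 of the 2 line 79 libraries. It passed the filter only through the other groups, so its calls there are not support for a difference.

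Line 79 had more LAMA1 and COL6A1 and less LAMB1 than its controls. In it 7 of 24 chains (29.2%) were called, against 7.95% of genes, 4 higher (2.43% of genes) and 3 lower (5.52%), and all 7 passed with adjusted P values (5.63% of genes). LAMA1 (ENSG00000101680, chr18:6941744-7117814), an alpha chain typical of embryonic basement membranes, was at 9.53 and 8.28 TPM in untreated cells and reached 48.5 and 51.2 TPM in line 79. It rose by 2.36 ± 0.10 on the log2 scale (adjusted P = 0.000131), and by 2.23 and 2.49 within the first and second library series. LAMB1 (ENSG00000091136, chr7:107923799-108003255), the usual beta partner of LAMA1, was at 117 and 120 TPM against 39.3 and 38.1 TPM. It fell by 1.59 ± 0.07 (adjusted P = 0.000176), so that LAMA1 and LAMB1, chains of the same trimer, moved in opposite directions. The next gene on its chromosome, LAMB4, reached at most 0.0766 TPM.

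LAMC1, the third chain of that trimer, was at 169 and 162 TPM in untreated cells and reached 226 and 235 TPM in line 79, a log2 difference of 0.47 ± 0.06 (adjusted P = 0.00641) that missed the fold threshold. The LAMB1 to LAMC1 ratio was 0.69 and 0.74 in the controls and 0.17 and 0.16 in line 79. LAMB2, the other common beta chain, was at 114 and 95.8 TPM against 109 and 99.8 TPM, and the groups overlapped. LAMB3 was at 230 and 201 TPM in line 79 and rose by 0.62 ± 0.11 (adjusted P = 0.0178), but by 0.53, under 1.5-fold, without line 79 replicate 1. LAMA3 was listed at 1.46 and 1.66 TPM against 0.307 and 0.521 TPM and fell by 0.86 ± 0.19 (adjusted P = 0.0377), and in FPKM it fell by 0.47, under 1.5-fold. LAMA3 reached 1 TPM in 0 of the 2 line 79 libraries and passed the filter only through the controls and the other lines, so it had to differ, and its call among the 7 here and among the 13 between lines is not support for a difference. With 1 TPM required in every library, 6 of 22 chains were called in line 79 and 12 among the lines, with no share of all genes computed. LAMA5, the alpha chain of adult epithelial basement membranes, was at 176 and 151 TPM against 128 and 111 TPM, a log2 difference of -0.45 ± 0.12 (adjusted P = 0.0775).

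COL6A1 (ENSG00000142156, chr21:45981737-46005050) was at 236 and 218 TPM in untreated cells and reached 500 and 464 TPM in line 79, the highest values of any chain in any library. It rose by 1.08 ± 0.08 (adjusted P = 0.00109), and by 1.08 within each library series. Its neighbour COL6A2 (chr21:46098097-46132849), on the same strand, was at 254 and 236 TPM against 367 and 329 TPM, a log2 difference of 0.50 ± 0.09 (adjusted P = 0.0208) under 1.5-fold. The COL6A1 to COL6A2 ratio was 0.93 and 0.92 in the controls and 1.36 and 1.41 in line 79, while it stayed between 0.90 and 0.95 in lines 86 and 87. COL4A6 was at 24.7 and 23.9 TPM against 38.1 and 39.6 TPM and rose by 0.66 ± 0.07 (adjusted P = 0.00423), whereas its head-to-head neighbour COL4A5 was at 48.4 and 40.8 TPM against 48.7 and 58.5 TPM (log2 difference 0.26). COL9A3, a cartilage fibril-associated chain, was at 9.39 and 6.96 TPM against 3.40 and 2.75 TPM and fell by 1.16 ± 0.21 (adjusted P = 0.0211). COL4A1 was at 152 and 140 TPM against 198 and 188 TPM (log2 difference 0.40, under 1.5-fold), and COL4A2 at 351 and 320 TPM against 347 and 328 TPM. The ratio of COL4A1 to COL4A2 was therefore 0.43 and 0.44 in the controls and 0.57 in both line 79 libraries. CDH5 stood alone among the 4 endothelial markers in moving with line 79, and its part in these differences was not tested.

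**Figure D3:**
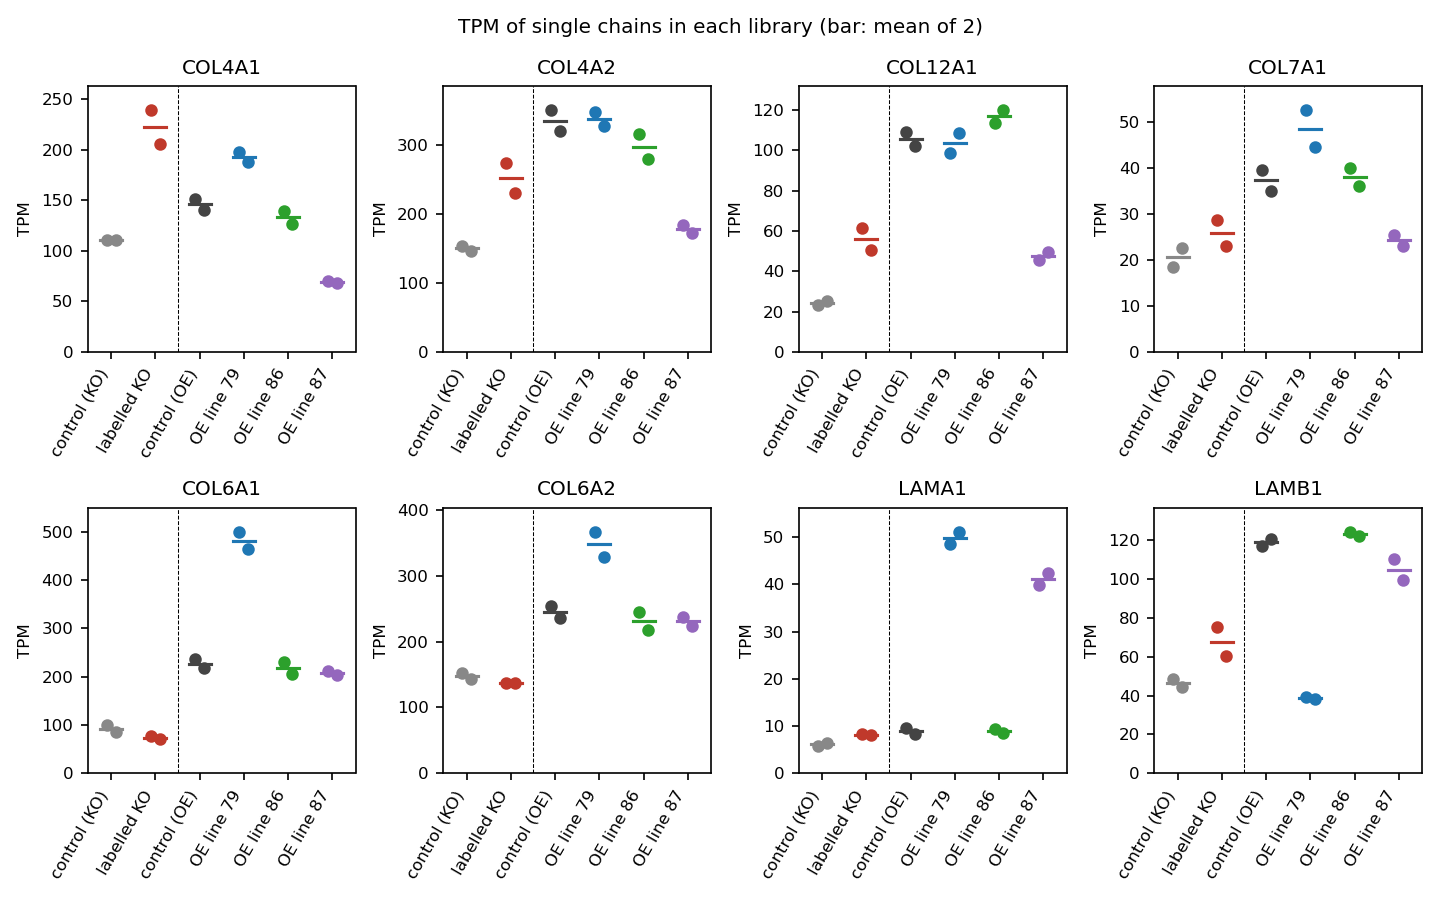
TPM of 8 chains (y axes, starting at 0) in each library by group (x axis; points, libraries; bars, the mean of 2; the dashed line separates the knockout set from the overexpression set). LAMA1 is near 50 TPM in line 79 (mean 49.8) and near 40 TPM in line 87 (mean 41.1) and below 10 TPM in every other library, and COL4A1, COL4A2 and COL12A1 are lowest of the overexpression set in line 87.

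Line 86 had the fewest calls of the 3 lines. Of 24 chains 2 (8.33%) were called, against 3.6% of genes, both also with adjusted P values (1.37% of genes). COL13A1 was at 18.3 and 19.4 TPM in the controls and 29.3 and 31.7 TPM in line 86 and rose by 0.67 ± 0.11 on the log2 scale (adjusted P = 0.0392). COL8A1 was at 35.2 and 35.5 TPM against 18.2 and 18.8 TPM and fell by 0.90 ± 0.07 (adjusted P = 0.00402). Within the 2 library series the changes were 0.65 and 0.68 for COL13A1 and -0.91 and -0.88 for COL8A1. LAMA1 was at 9.32 and 8.64 TPM, between its controls, with a log2 difference of 0.01 ± 0.10. LAMB3 was at 143 and 136 TPM against 192 and 172 TPM, a log2 difference of 0.38 ± 0.11 (adjusted P = 0.185).

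Line 87, with the highest U11 TPM of its set, had less COL4A1, COL4A2, COL12A1 and COL7A1 and more LAMA1 and LAMB3. Of 24 chains 6 (25%) were called, against 5.13% of genes, 2 higher (2.08% of genes) and 4 lower (3.05%), all 6 also with adjusted P values (2.65% of genes). COL4A1 was at 152 and 140 TPM in the controls and 69.9 and 68.2 TPM in line 87 and fell by 1.06 ± 0.08 on the log2 scale (adjusted P = 0.00154). COL4A2 was at 351 and 320 TPM against 184 and 173 TPM and fell by 0.91 ± 0.09 (adjusted P = 0.00427). Both genes of the head-to-head pair were thus lower. Neither overlapped its controls, which was also so for uncalled chains such as COL5A2 and COL6A1. The ratio of COL4A1 to COL4A2 was 0.38 and 0.40. The other expressed collagen IV chains were not called, with log2 differences of -0.15 for COL4A5 and 0.08 for COL4A6. COL12A1 was at 109 and 102 TPM against 45.5 and 49.7 TPM and fell by 1.14 ± 0.08 (adjusted P = 0.00155). COL7A1, the anchoring fibril chain, was at 39.7 and 35.0 TPM against 25.4 and 23.1 TPM and fell by 0.60 ± 0.12 (adjusted P = 0.0469). The COL7A1 call sat at the fold threshold: the change was -0.54 without line 87 replicate 3, -0.52 without control replicate 1 and -0.56 in FPKM, all under 1.5-fold.

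LAMA1 was at 39.8 and 42.4 TPM in line 87 and rose by 2.09 ± 0.10 (adjusted P = 0.000318), and by 1.96 and 2.23 within the library series. Lines 79 and 87 share these controls, and between them LAMA1 differed by 0.27 ± 0.10 (adjusted P = 0.141). Against line 86, LAMA1 was higher by 2.35 ± 0.10 in line 79 (adjusted P = 0.000113), and line 86 differed from line 87 by -2.08 ± 0.10 (adjusted P = 0.000293). LAMB1, low in line 79, was at 110 and 99.2 TPM in line 87, a log2 difference of -0.18 ± 0.07 from the controls (adjusted P = 0.256), and the line 79 to line 87 difference was -1.41 ± 0.07 (adjusted P = 0.000264). LAMB3 was at 233 and 201 TPM in line 87 and rose by 0.63 ± 0.11 (adjusted P = 0.034), and by 0.53, under 1.5-fold, without line 87 replicate 1. LAMA5 was at 152 and 138 TPM in line 87, so the LAMA1 to LAMA5 ratio was 0.26 and 0.31 there and 0.38 and 0.46 in line 79, against 0.054 and 0.055 in the controls. Within both library series, all 15 calls of the 3 line comparisons had the direction of the pooled value. Since that value is the mean of the 2 series differences for chains already called, this is not separate support.

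The 6 remaining chains were called in none of the comparisons above. In the overexpression set COL5A2 lay between 360 and 453 TPM, COL18A1 between 222 and 358 TPM, LAMA5 between 111 and 179 TPM and COL4A5 between 37.1 and 58.5 TPM. COL17A1, a transmembrane collagen of hemidesmosomes, lay between 0.696 and 2.0 TPM over all 12 libraries and did not pass the filter in the knockout set. COL16A1 did not pass it in the overexpression set.

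**Figure D4:**
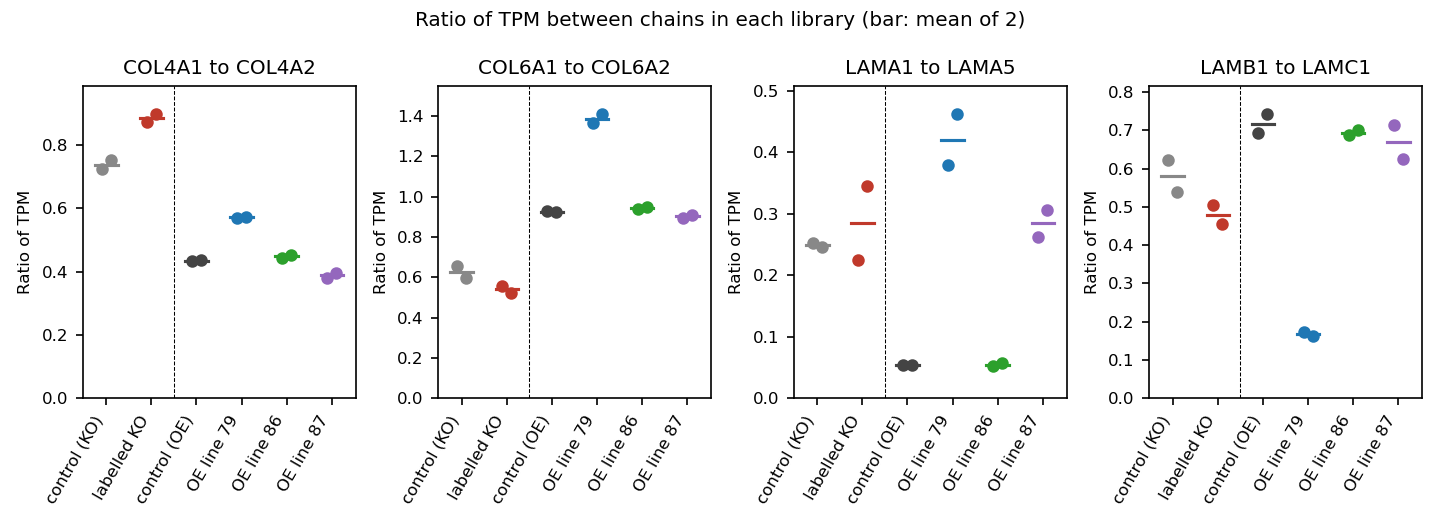
Ratio of TPM between 2 chains (y axes, starting at 0) in each library by group (x axis; points, libraries; bars, the mean of 2; the dashed line separates the knockout set from the overexpression set). Within the overexpression set LAMA1 to LAMA5 is above 0.2 in lines 79 and 87 alone, COL6A1 to COL6A2 is above 1 in line 79 alone, and LAMB1 to LAMC1 is below 0.2 in line 79 alone.

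Genes that fold, process and bind these chains were read from lists of known partners. The lists were chosen with earlier results of these data known, so their shares describe these genes and do not test an excess. Of 17 tested genes that fold or modify collagen, 4 (23.5%) were called in the knockout-label libraries, against 11.8% of all genes. PLOD3, a lysyl hydroxylase that also glycosylates collagen (log2 change 0.68, adjusted P = 0.0273), FKBP10, a collagen chaperone (0.70, adjusted P = 0.13), and MIA3, which loads procollagen into transport carriers (0.62, adjusted P = 0.069), rose. P3H2, a prolyl 3-hydroxylase acting on collagen IV, went from 13.1 and 13.4 TPM to 6.20 and 5.5 TPM and fell by 1.06 (adjusted P = 0.0202). In FPKM and with median ratio scaling the calls of PLOD3, FKBP10 and MIA3 were lost. The differences were then 0.58 and 0.56 for PLOD3, 0.60 and 0.58 for FKBP10, and 0.51 and 0.50 for MIA3. FKBP10 was at 40.0 and 38.7 TPM in the controls and 51.0 and 81.7 TPM in the knockout-label libraries, and without knockout-label replicate 2 its log2 difference was 0.37, under 1.5-fold. MIA3 was likewise at 0.48 without knockout-label replicate 1 and 0.53 without control replicate 1, so PLOD3 and P3H2, 2 of the 4, held without each library. In the line comparisons 1 of the 17 (5.88%) was called in each, near the 7.95%, 3.6% and 5.13% of all genes called in lines 79, 86 and 87: PLOD3 fell by 0.73 in line 79 (adjusted P = 0.00778), FKBP10 rose by 0.62 in line 86 (adjusted P = 0.0287) and P3H4 fell by 0.62 in line 87 (adjusted P = 0.0222). The FKBP10 difference was 0.56 without line 86 replicate 1 and 0.55 without control replicate 2, and that of P3H4 was -0.58 without line 87 replicate 3, all under 1.5-fold. Among the 3 lines, 5 (29.4%) were called, against 14.6% of all genes. The collagen chaperone SERPINH1 was not called in any comparison and lay between 63.4 and 87.5 TPM in the knockout set.

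Of 9 tested genes for procollagen processing and crosslinking, TLL1, a procollagen C-proteinase, rose by 1.35 in the knockout-label libraries (adjusted P = 0.0239). It was the 1 gene of the 9 called there (11.1%), close to the 11.8% of all genes. PCOLCE2, an enhancer of that cleavage, was the 1 gene of the lists called over the 6 overexpression libraries, with a log2 change of 0.67 (adjusted P = 0.5). That was 11.1% of the 9, against 1.93% of all genes, while 0 of 17, 0 of 6 and 0 of 10 were called in the other lists. It was called in line 79 (0.80) and line 87 (0.76), where PCOLCE (-0.62) and ADAMTS3 (-0.60), respectively, were called lower, all with adjusted P values above 0.05. Of these 5 calls, only that of PCOLCE2 in line 79 held without each library in turn. Of 6 basement membrane partners, 3 (50%) were called in the knockout-label libraries, all higher, against 8.61% of all genes called higher. NID1, the nidogen that links laminin to collagen IV, rose by 0.79 (adjusted P = 0.0426). NTN4, a netrin that binds laminin gamma chains, rose by 0.80 (adjusted P = 0.043). SPARC, a collagen-binding glycoprotein, rose by 0.72 (adjusted P = 0.144). SPARC was at 108 and 64.3 TPM in the controls and 142 and 134 TPM in the knockout-label libraries, and without control replicate 2 its log2 difference was 0.35, under 1.5-fold, so 2 of the 3 calls held without each library. NTN4 was at 34.6 and 37.4 TPM in the overexpression-set controls, 17.0 and 18.1 TPM in line 79 and 22.1 and 22.0 TPM in line 87, and fell by 0.99 (adjusted P = 0.00106) and 0.68 (adjusted P = 0.00768). HSPG2, the heparan sulfate proteoglycan perlecan, rose by 0.75 in line 79 (adjusted P = 0.0247) and by 0.66 in line 86, where its adjusted P = 0.0954 did not pass and where the difference was 0.49 without line 86 replicate 1 and 0.51 without control replicate 2, both under 1.5-fold.

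In the knockout-label libraries 8.61% of all genes were called higher. With adjusted P values 6.85% were called in either direction, 686 genes higher and 298 lower. Of 10 tested receptors of collagen and laminin, 8 rose there, 6 of them also with adjusted P values. The 4 with the largest change were ITGA2, the alpha 2 integrin that binds collagen (1.82, adjusted P = 0.00702), ITGA1, the alpha 1 collagen integrin (0.98, adjusted P = 0.026), ITGA3, a laminin integrin (0.91, adjusted P = 0.0203), and BCAM, a receptor for LAMA5 (0.81, adjusted P = 0.0367). Of the 8, ITGA11 and ITGB4 passed the filter only through the knockout-label libraries, so they had to differ. That leaves 6 of the other 8 tested, 5 of them also with adjusted P values, with no matching share of all genes computed. Of these 6, DDR1 had a log2 difference of 0.58, under 1.5-fold, without knockout-label replicate 1. In the overexpression set 10 receptors were tested as well, with ITGA10 in place of ITGA11, and in each line comparison 1 of them (10%) was called, against 7.95%, 3.6% and 5.13% of all genes: ITGA2 rose in line 79 (1.12, adjusted P = 0.118), ITGA6 rose in line 86 (0.60, adjusted P = 0.024) and ITGA1 fell in line 87 (log2 change -0.68, adjusted P = 0.0309). Of the 3, the ITGA1 call held without each library but was lost in FPKM, at -0.47, under 1.5-fold. That of ITGA2 was lost without either line 79 library, though its difference stayed at 1.18 and 1.07. It was also lost without control replicate 2, where the difference was 0.74. The ITGA6 call was lost at 0.49 without line 86 replicate 1, 0.58 without control replicate 1 and 0.58 in FPKM.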

How the data were processed

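Gene tables of 12 T24 libraries were used. Per the study's methods the authors trimmed reads with fastp, aligned them to hg38 with Hisat2 and quantified genes with Stringtie (versions not given in the sources used here). The methods name depletion of ribosomal RNA, whereas the labels name polyadenylated RNA. The deposited TPM values, scaled within each library, were analysed here, with the deposited FPKM values as an alternative, and the deposited coverage (mean reads per base) gave the aligned gigabases. No counts were used, so counting error is unknown and no interval is given.

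Genes that reached 1 TPM in 2 or more compared libraries were fitted as log2(TPM + 1) with limma 3.58.1 in R 4.3.3 (lmFit, eBayes with trend), with no correction for library series. Fold changes on this scale understate those of low genes. Calls needed a 1.5-fold change and an unadjusted P below 0.05, as in the study, with Benjamini-Hochberg adjusted P over all genes beside them. The 3 line comparisons came from 1 fit with 4 groups and share 2 controls. The fit was tested on simulated data. The members and lists were chosen with earlier results of these data known. Values in each library are given for called chains that averaged 5 TPM or more in a group, their trimer partners and the most abundant chain of a class. Called partner genes are named, or the 4 with the largest change where over 6 moved one way, and other values were chosen after they were seen.

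The library series pairs the overexpression-set libraries: differences between the 2 series correlated at 0.106 to 0.192 for all 6 pairs of groups over 12356 genes. A gene of the family is not reported here and enters no count or sum of chains. Promoters were matched by symbol to a RefSeq table (19 of 25 members) and introns to GENCODE 44. Alternatives were FPKM, a pseudocount of 0.1, other filters, scalings, controls and fits, a replicate block, and leaving out each library.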

Additional observations from a re-analysis of the deposited data

Results flagged for a closer look

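For 12 chains the change from the controls differed between the 3 overexpression lines, by limma's moderated F test with an adjusted P under 0.05 and at least a 1.5-fold difference. The largest log2 difference between any pair of lines was 2.35 for LAMA1, 1.64 for LAMB1, 1.47 for COL4A1, 1.28 for COL12A1, 1.21 for COL6A1, 1.11 for COL8A1 and 1.08 for LAMA3, which was under 1 TPM in both line 79 libraries and passed the filter only through the other groups. It was 0.97 for COL7A1, 0.92 for COL4A2, 0.91 for COL13A1, 0.72 for COL4A6 and 0.59 for COL6A2. Each line is 2 libraries of unknown relation, so these differences are between libraries that carry different line labels. No chain had a library far from the rest of the 6 overexpression libraries by Dixon's test.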

How the results depend on the processing

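Of 624 recomputed values of chains already called in a comparison, 595 kept their direction and their side of the thresholds, 28 kept the direction only and 1 reversed. Chains not called are not among them, so calls gained under an alternative are not counted there. In the comparison of the knockout-label libraries, 11 chains were called, 4 with all 4 untreated libraries as controls, which mix library types, 7 by adjusted P and 18 with no fold threshold. LAMB2 turned to -0.37 with those 4 controls. Median ratio scaling and quantile normalization moved the median of all genes from 0.11 to 0.00 and -0.01, left 7 higher and 2 lower chains of 9 and 2 (COL1A1 and LAMA3 were lost), and moved all genes called from 1236 higher and 452 lower to 795 and 704, and 743 and 695. Over the 6 overexpression libraries, 0 chains became 2 with all 12 libraries in one fit, 9 with all 4 untreated libraries and 1 with no fold threshold. In that one fit LAMA1 and COL9A3 kept their differences of 1.49 and -0.65, while P of LAMA1 went from 0.0671 to 2.1e-08 (limma). The libraries fitted and the spread used for the test thus both changed. With no fold threshold the counts were 14 in line 79, 4 in line 86 and 10 in line 87. No share of all genes was computed for counts with no fold threshold, all 4 untreated libraries or all 12 libraries in one fit.

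Leaving out each library in turn gave 9 to 11 chains for the knockout label, 0 to 2 over the overexpression libraries, 6 to 7 in line 79, 2 in line 86, 5 to 7 in line 87 and 12 to 14 among the lines. These counts are by unadjusted P, and a group left with 1 library was then assumed to vary like the others. With a replicate block the knockout-label count was 9 (COL27A1 and LAMA3 were lost). Those libraries share only a number, with a correlation of 0.016 between their replicate differences. By unadjusted P the block left the counts at 0 over the overexpression libraries, 7, 2 and 6 in lines 79, 86 and 87 and 13 among the lines, and changed no other call. By adjusted P, COL12A1 and COL13A1 were no longer called with it in the knockout-label libraries (0.0648 and 0.0797, limma). Of the 16 partner genes called in the knockout-label libraries, 12 were lost with all 4 untreated libraries, 5 with median ratio scaling, 4 with quantile normalization and 5 in FPKM. In FPKM, 1 of 6 partner calls was lost in line 79, 1 of 3 in line 86 and 3 of 5 in line 87. The cause of these shifts was not tested. Each group held 2 libraries, TPM carries no depth, and the exact permutation tests of 2 against 2 libraries cannot reach 0.05, so none was run.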

Other observations

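The following 3 partner genes were chosen after their values were seen. TLL1, called in the knockout-label libraries at 14.4 and 11 TPM against 4.02 and 4.70 TPM, was also at 11.7 and 11.6 TPM in line 87, against 7.22 and 8.95 TPM in the overexpression-set controls and 6.17 to 7.44 TPM in lines 79 and 86, and differed among the lines (adjusted P = 0.0109, limma). ADAMTS3, a procollagen N-proteinase, was at 7.12 and 7.05 TPM in line 86, above the 4.40 and 4.65 TPM of the controls, and between 2.39 and 2.93 TPM in lines 79 and 87 (adjusted P = 0.00304 among the lines, limma). DAG1, the dystroglycan receptor of laminin alpha chains, stood at 69.0 TPM in line 87 replicate 3 and at 11.3 TPM in replicate 1 of the same line.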
